A study of Mus musculus with 6 samples.

Results

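The genes of glucose uptake, glycolysis and glycogen metabolism were read in the left ventricle of wild-type mice 5 weeks after surgery, which was either transverse aortic coarctation (TAC) or a sham procedure. The set was chosen by gene symbol: 33 symbols, which matched 34 of the 24602 gene records, because Aldoa has a second record with at most 18 counts in a library. Of the 33, 28 had a mean FPKM (fragments scaled to transcript length and library depth) of 1 or more and entered the test, and Aldoc, Pfkfb1, Pfkfb3, Pgm2 and Phkb fell under that level. There were 3 TAC and 3 sham libraries of poly(A)-selected RNA, and both groups carried the wild-type genotype and no drug was named for either. TAC narrows the aorta and loads the left ventricle with pressure. The sources used here do not state strain, sex or age. The labels leave unsaid whether each library is a different mouse, and the p-values therefore describe the spread among these 6 libraries alone, part of which may be technical.

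As background, heart muscle takes up glucose through the insulin-responsive transporter GLUT4 and the basal transporter GLUT1. Hexokinase traps it as glucose 6-phosphate, which either runs down glycolysis to pyruvate and lactate or is turned through glucose 1-phosphate and UDP-glucose into glycogen. Phosphofructokinase sets the main control point of glycolysis, and glycogen phosphorylase, which phosphorylase kinase switches on, returns glucose units from the glycogen store. The healthy adult heart burns mostly fatty acids, and many of these enzymes exist as muscle forms and as forms found in other tissues.

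The library totals of deposited estimated counts ran between 64026540 and 69992502 in TAC libraries and between 64023153 and 68121413 in sham libraries. Mitochondrial genes took 22.6% to 29.2% of the counts in TAC libraries and 14.8% to 19.2% in sham libraries, and the TMM scaling factors were 0.909, 0.916 and 1.05 in TAC and 1.02, 1.08 and 1.04 in sham libraries. In unscaled log2(FPKM + 1) values, the median tested gene lay 0.13 lower in TAC than in sham, against -0.0086 after TMM scaling, so the FPKM printed here read lower in TAC than the fitted fold changes do. Ventricular cardiomyocyte markers were high in all libraries and 0 of 12 passed the test (0 had an unadjusted p under 0.05 in edgeR, and DESeq2 called 1), with summed levels of 61067 to 83899 CPM (counts scaled to library size) in TAC and 83577 to 92306 CPM in sham libraries. Of the fibroblast markers 3 of 10 were called higher in TAC, where 4.71% of all tested genes were, with summed levels of 2523 to 3538 CPM in TAC and 2568.5 to 2714 CPM in sham libraries. Gsn was by far the most abundant of them, at 517 to 574 FPKM in TAC and 635 to 721 FPKM in sham libraries (log2 -0.19). The median log2 fold change of the 10 was 0.86, and 0.32 without TAC replicate 3. At an unadjusted p under 0.05 in edgeR, 6 of the 10 were higher and 0 lower. Of the endothelial markers 1 of 8 (Tek) and of the smooth muscle and pericyte markers 2 of 7 (Cnn1 and Rgs5) were called higher. Without TAC replicate 3 these counts were 6 of 8 and 4 of 7, and 3 of 10 for fibroblasts, where 9.24% of all tested genes were called higher. The red cell markers summed to 965 to 2272 CPM in TAC and 454 to 1473 CPM in sham libraries. Of 8 skeletal muscle markers other than Mybpc2 and Ckm, none exceeded an FPKM of 1.16 in a library, and Ckm is shared with heart muscle. Mybpc2 was called higher, with 11.3, 9.53 and 23.2 FPKM in TAC and 7.78, 5.73 and 6.02 FPKM in sham libraries (log2 1.28, edgeR adjusted p = 0.0387). Of 5 atrial markers, Nppa was called higher and Dbh lower, and Myl7 ran from 2.61 to 60.7 FPKM in TAC and 11.5 to 99.3 FPKM in sham libraries. In whole tissue, fewer cells of a type and less RNA per cell cannot be told apart, and the part of cell makeup in the results was not tested.

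Across the 28 tested genes, the RNA of Ugp2 and Gbe1, enzymes that build glycogen, was higher in TAC, and the RNA of Slc2a4, which encodes GLUT4, and of Pfkm, muscle phosphofructokinase, was lower. These 4 genes (14.3%) passed the quasi-likelihood test of edgeR with a Benjamini-Hochberg adjusted p under 0.05, against 6.99% of the 8795 tested genes; 4.71% of all tested genes were called higher and 2.29% lower. The median log2 fold change was -0.080 over the 28 genes and -0.0086 over all tested genes, and 11 of the 28 had a positive and 17 a negative value. The CPM of the groups did not overlap for 14 genes, 5 with every TAC library above every sham library and 9 below, where 17.7% and 17.1% of all tested genes did so. A further 6 genes, Gys1, Eno3, Ldha, Gyg, Pygm and Phka1, had adjusted p-values between 0.05 and 0.1.

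**Figure D1:**
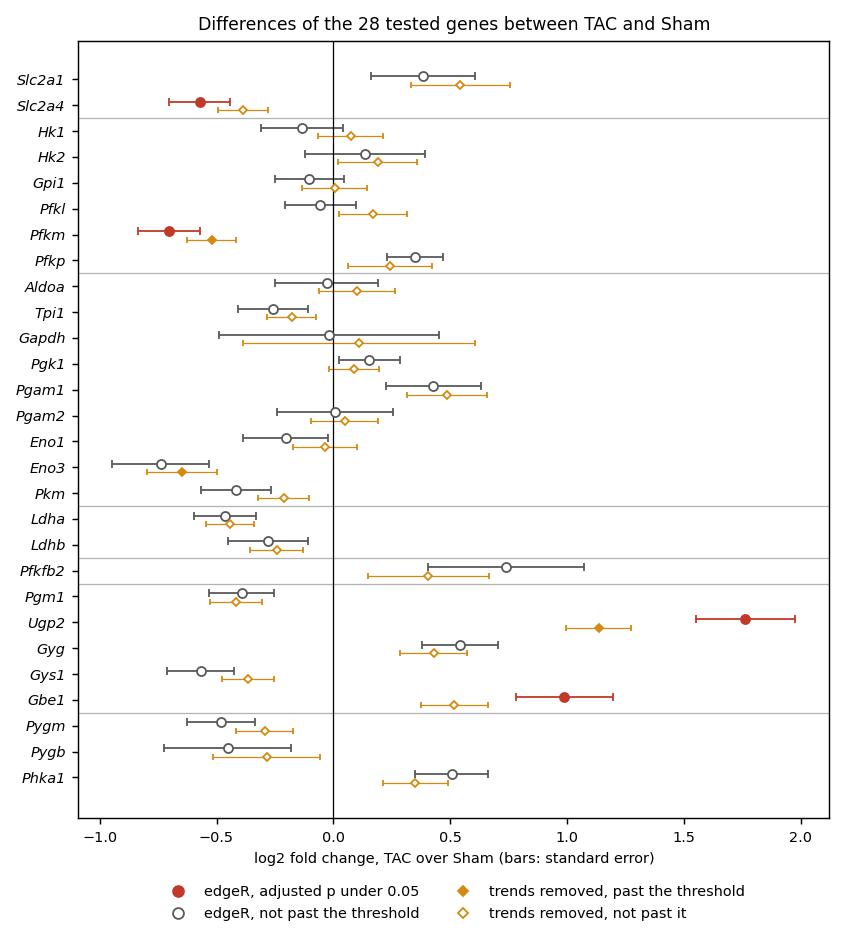
Fitted log2 fold change of TAC over sham (edgeR, x axis) with its standard error as bars for the 28 tested genes, grouped by role, with the values after removal of the GC and length trends as diamonds and filled symbols for called genes. Ugp2 at 1.76 and Gbe1 at 0.99 lay highest and passed the test, as did Pfkm at -0.70 and Slc2a4 at -0.57, while Eno3 at -0.74 had the lowest value and an adjusted p of 0.0668.

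The first question was whether the RNA of the glucose transporters differed between TAC and sham ventricles. Slc2a4 (chr11:69942539-69948175, GRCm38) had 102.7, 94.2 and 111 FPKM in TAC libraries, against 152, 179 and 176 FPKM in sham libraries. Every TAC library lay below every sham library. Slc2a4 was 0.673 times the sham level in the fit (log2 fold change -0.57 ± 0.13 (SE), edgeR adjusted p = 0.0406), with 395 ± 17.2 CPM in TAC and 587 ± 41.4 CPM in sham (SD, n = 3 each). The call held in 1 of the 6 fits that left out a library, the one without TAC replicate 3 (log2 -0.57, edgeR adjusted p = 0.0199); in the other 5 the adjusted p ran to 0.164. The log2 value stayed within -0.61 to -0.53 over all 6 fits. With the libraries' trends over GC content and transcript length removed, Slc2a4 had a log2 value of -0.39 and an edgeR adjusted p of 0.0792. Slc2a1 (chr4:119108711-119137983), which encodes the basal transporter GLUT1, had 5.13, 5.89 and 8.99 FPKM in TAC libraries, against 5.15, 4.69 and 6.92 FPKM in sham libraries. Its groups overlapped, with TAC replicate 3 the highest of the 6, and its log2 fold change of 0.38 ± 0.22 did not pass the test (edgeR adjusted p = 0.304).

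Of the 6 tested genes between glucose and fructose 1,6-bisphosphate, muscle phosphofructokinase was called lower in TAC and the other 5 did not pass. Their fold changes were not tested against each other. Pfkm (chr15:98092589-98132447) had 267, 254 and 322 FPKM in TAC libraries, against 497, 514 and 503 FPKM in sham libraries. The sham libraries lay close together and all 3 TAC libraries lay far below them. Pfkm was 0.614 times the sham level in the fit (log2 fold change -0.70 ± 0.13 (SE), edgeR adjusted p = 0.0287), with 1033 ± 54.1 CPM in TAC and 1683 ± 16.2 CPM in sham (SD, n = 3 each). The call held without TAC replicate 3 (edgeR adjusted p = 0.0102) and was lost without any other library, where the adjusted p ran to 0.124. The log2 value stayed within -0.74 to -0.67 over all 6 fits. Of its exonic bases 10.2% are shared on the same strand with Gm26513, whose mean was 0.056 FPKM. After removal of the GC and length trends Pfkm was still called, at a log2 value of -0.52 and an edgeR adjusted p of 0.0361.

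The other phosphofructokinase genes, which are expressed more widely, did not pass the test. Pfkp, the platelet-type subunit, had 6.89, 7.15 and 7.81 FPKM in TAC libraries, against 6.62, 6.32 and 6.002 FPKM in sham libraries. Every TAC library lay above every sham library, by a small margin, and the log2 fold change of 0.35 ± 0.12 missed the threshold (edgeR adjusted p = 0.102). Pfkl, the liver-type subunit, had 24.1, 26.6 and 21.9 FPKM in TAC libraries, against 26.4, 30.2 and 27.7 FPKM in sham libraries. Its groups overlapped by little in FPKM. In TMM-scaled CPM the TAC libraries ran from 148 to 206 and the sham libraries within that range, from 180 to 195. The log2 fold change of Pfkl was -0.056 ± 0.15. Pfkm made up 89.6%, 88.3% and 91.5% of the summed FPKM of the phosphofructokinase genes in TAC libraries, against 93.8%, 93.4% and 93.7% in sham libraries. All 3 TAC shares lay below all 3 sham shares, and the exact two-sided permutation test gave its smallest possible p with 3 against 3 libraries, 0.1.

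Hexokinase 1, the housekeeping form, and hexokinase 2, the insulin-regulated muscle form, carry out the first step of glucose use in the heart. Hk1 had 30.3, 25.5 and 44.3 FPKM in TAC libraries, against 35.6, 43.9 and 40.9 FPKM in sham libraries. Hk2 had 15.6, 13.5 and 31.6 FPKM in TAC libraries, against 21.5, 19.3 and 18.9 FPKM in sham libraries. For both, TAC replicate 3 was the highest library of all and the other TAC replicates the lowest, so that the groups overlapped. The log2 fold changes were -0.13 ± 0.18 for Hk1 and 0.14 ± 0.26 for Hk2, and neither passed (edgeR adjusted p = 0.669 and 0.778). Gpi1, glucose 6-phosphate isomerase, ranged from 146 to 159 FPKM in TAC and 156 to 201 FPKM in sham libraries, with overlapping groups and a log2 fold change of -0.10 ± 0.15.

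**Figure D2:**
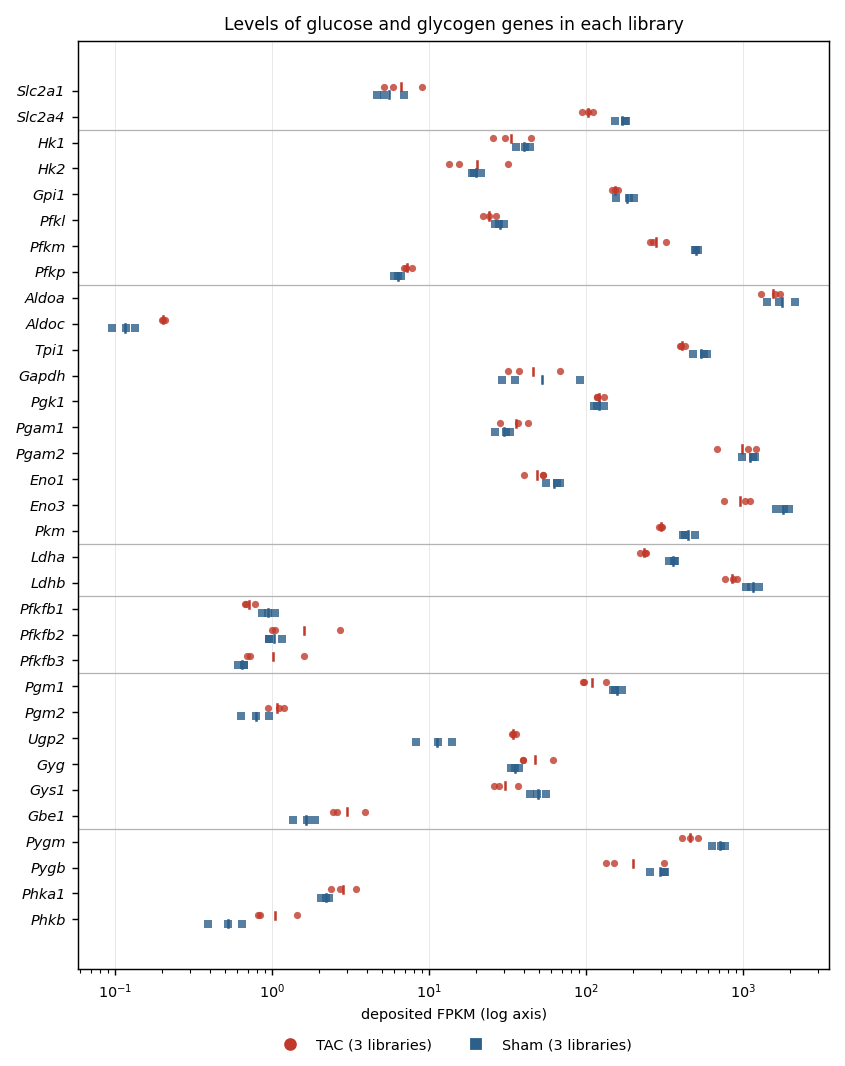
FPKM of each gene on a log x axis, one point per library, with TAC libraries (circles) above sham libraries (squares) for each gene and a vertical tick at each group mean. Ugp2 stands at 33.7 to 35.6 FPKM in TAC and 8.26 to 13.9 FPKM in sham, Pfkm at 254 to 322 and 497 to 514 FPKM, while Aldoa, Pgam2 and Eno3 reach the highest levels and Gapdh spreads widely within both groups.

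From aldolase to pyruvate kinase, 0 of the 9 tested genes passed edgeR's test at an adjusted p under 0.05; 2 of them, Eno3 and Pkm, had an unadjusted p under 0.05 and were called lower by DESeq2, a test that called 7.57% of all genes lower and 8.51% higher. The muscle enolase Eno3 (chr11:70657202-70662513) had 1101, 1023 and 761 FPKM in TAC libraries, against 1628, 1959 and 1810.2 FPKM in sham libraries. Every TAC library lay below every sham library, with TAC replicate 3 the lowest. Its log2 fold change was -0.74 ± 0.21 (edgeR adjusted p = 0.0668), and the adjusted p was 0.0287 without TAC replicate 3 (log2 -0.55) and 0.0484 after removal of the GC and length trends (log2 -0.65), so that Eno3 was called lower in both of those fits. Pkm, which encodes the muscle pyruvate kinase that makes pyruvate and ATP, had 307, 298 and 291 FPKM in TAC libraries, against 412, 494 and 424 FPKM in sham libraries. Its groups did not overlap, and its log2 fold change was -0.42 ± 0.15 (edgeR adjusted p = 0.114). Of the exonic bases of Pkm, 15.3% are shared on the same strand with the record Gm49759, whose mean was 0.868 FPKM.

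Other abundant enzymes of this stretch did not pass the test. Aldoa, the muscle aldolase, had 1722, 1595 and 1309 FPKM in TAC libraries, against 1428, 1695 and 2149 FPKM in sham libraries. Sham replicate 3 was the highest and TAC replicate 3 the lowest, the others were interleaved, and the log2 fold change was -0.029 ± 0.22. Pgam2, the muscle phosphoglycerate mutase, had 1079, 1204 and 684 FPKM in TAC libraries, against 987, 1153 and 1183 FPKM in sham libraries, with TAC replicate 3 far below the rest. Its log2 fold change was 0.0067 ± 0.25, and its sign turned under several alternatives. Tpi1, triose phosphate isomerase, ranged from 398 to 425 FPKM in TAC and 481 to 585 FPKM in sham libraries. The FPKM of its groups did not overlap but the TMM-scaled CPM did, and the log2 fold change was -0.26 ± 0.15 (edgeR adjusted p = 0.303).

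The remaining genes of lower glycolysis were less abundant. Pgk1, phosphoglycerate kinase, ranged from 117 to 129 FPKM in TAC and 113 to 131 FPKM in sham libraries, a log2 fold change of 0.15 ± 0.13. Pgam1, the mutase of non-muscle tissues, had 36.7, 42.8 and 28.4 FPKM in TAC libraries, against 30.8, 32.8 and 26.3 FPKM in sham libraries. TAC replicate 3 was the lowest of its group and sham replicate 3 of its own, and the groups overlapped. Its log2 fold change was 0.43 ± 0.20 (edgeR adjusted p = 0.211), and 0.62 without TAC replicate 3, where Pgam1 was called higher (edgeR adjusted p = 0.0172). Eno1, the widely expressed enolase, ranged from 40.5 to 53.1 FPKM in TAC and 55.7 to 67.8 FPKM in sham libraries, with a log2 fold change of -0.20 ± 0.18 and CPM that overlapped. Aldoc, the brain-type aldolase, stayed under 0.210 FPKM in every library.

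Gapdh, glyceraldehyde 3-phosphate dehydrogenase, could not be read from its own record. That record (chr6:125161715-125165773) had only 37.3, 68.5 and 31.7 FPKM in TAC libraries, against 29.3, 35.3 and 91.7 FPKM in sham libraries. TAC replicate 2 and sham replicate 3 lay well above the other 4, and the log2 fold change was -0.019 ± 0.47. The table holds 84 other records that are at least 95% identical to the longest Gapdh transcript over 200 bases or more, and they took nearly all counts of the family: the Gapdh record held 1.51% to 3.33% of them in TAC libraries and 1.44% to 3.74% in sham libraries. The copy with the most counts, the processed pseudogene Gm7336 (chr7:51746647-51747878), had 1087, 969.8 and 1157 FPKM in TAC libraries, against 1074, 1343 and 1255 FPKM in sham libraries. Summed over all 85 records, the family had 10210, 9844 and 8779 CPM in TAC libraries, against 8168, 9840 and 10231 CPM in sham libraries. The groups overlapped, and the fitted log2 fold change of the sum was 0.031 ± 0.17 (edgeR adjusted p = 0.926). No other member was split in this way: Eno1 kept 92.0% to 93.2%, Pgam1 92.4% to 94.6% and Pgk1 96.4% to 97.1% of the counts of their families, and the others with copies more than 99%.

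**Figure D3:**
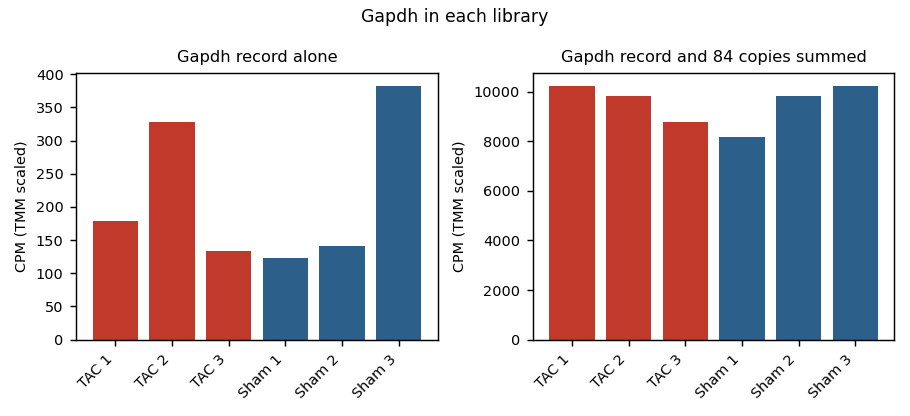
CPM of the Gapdh record alone and of the Gapdh record summed with its 84 near-identical copies, one bar per library, TAC left of sham. The record alone lies between 123 and 382 CPM, and the sum between 8168 and 10231 CPM with overlapping groups.

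Lactate dehydrogenase interconverts pyruvate and lactate, with Ldhb the main subunit of heart muscle and Ldha that of skeletal muscle. Ldha had 237, 222 and 240.4 FPKM in TAC libraries, against 336, 370.0 and 363 FPKM in sham libraries. Every TAC library lay below every sham library. The log2 fold change of Ldha was -0.46 ± 0.13 (edgeR adjusted p = 0.0680), and it was called lower by DESeq2 and, in edgeR, without TAC replicate 3 (log2 -0.43, edgeR adjusted p = 0.0437). Ldhb had 864, 921 and 763 FPKM in TAC libraries, against 1051, 1127 and 1267 FPKM in sham libraries, and its groups did not overlap either. Its log2 fold change of -0.28 ± 0.17 did not pass the test (edgeR adjusted p = 0.329). Ldha made up 21.5%, 19.4% and 24.0% of the summed FPKM of both genes in TAC libraries, against 24.2%, 24.7% and 22.3% in sham libraries, and these shares overlapped (exact two-sided permutation test, p = 0.2).

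The bifunctional enzymes of the Pfkfb family make and break down fructose 2,6-bisphosphate, which activates phosphofructokinase, and Pfkfb2 encodes the heart form. Pfkfb2 had 1.05, 0.999 and 2.72 FPKM in TAC libraries, against 0.958, 0.955 and 1.15 FPKM in sham libraries. TAC replicate 3 was more than 2-fold above the mean of the other TAC replicates on the log2 CPM scale, by 1.17. In FPKM the other TAC libraries lay within the range of the sham libraries, while in TMM-scaled CPM TAC replicate 1, at 8.82, lay above the highest sham library, at 8.46. Pfkfb2 was the only one of the 28 genes past 2-fold in this way, where 3.31% of all tested genes were. The log2 fold change was 0.74 ± 0.33 with all libraries and 0.21 without TAC replicate 3, and neither passed the test (edgeR adjusted p = 0.192 and 0.437). Pfkfb3, the inducible form, had 0.728, 0.692 and 1.60 FPKM in TAC libraries, against 0.610, 0.667 and 0.664 FPKM in sham libraries, with TAC replicate 3 again the highest. Pfkfb1, the form of liver and skeletal muscle, ranged from 0.673 to 0.779 FPKM in TAC and 0.869 to 1.04 FPKM in sham libraries. In TMM-scaled CPM the groups of Pfkfb1 overlapped, at 2.75 to 3.68 in TAC and 3.41 to 4.23 in sham libraries. Neither passed when genes of all levels were tested (edgeR adjusted p = 0.243 for Pfkfb3 and 0.427 for Pfkfb1).

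Along the route into glycogen, edgeR called 2 of the 5 tested genes higher in TAC, where 4.71% of all tested genes were, and the other 3 did not pass. DESeq2 called the same 2 higher and also called Gys1 and Pgm1 lower (DESeq2 adjusted p = 0.00154 and 0.0144). Over all genes DESeq2 called 8.51% higher and 7.57% lower. Ugp2 (chr11:21321138-21371201), which encodes the pyrophosphorylase that makes UDP-glucose, the activated glucose added to glycogen, had 34.1, 35.6 and 33.7 FPKM in TAC libraries, against 13.9, 8.26 and 11.5 FPKM in sham libraries. The TAC libraries lay close together and every one of them stood far above every sham library. Ugp2 was 3.39 times the sham level in the fit (log2 fold change 1.76 ± 0.21 (SE), edgeR adjusted p = 0.0104), with 117 ± 11.3 CPM in TAC and 34.6 ± 9.50 CPM in sham (SD, n = 3 each). It was called in 6 of 6 fits that left out a library, with log2 values of 1.57 to 1.99 and adjusted p-values up to 0.0462. Gbe1 (chr16:70313949-70569716), the branching enzyme that adds side chains to glycogen, had 2.45, 2.61 and 3.89 FPKM in TAC libraries, against 1.89, 1.35 and 1.68 FPKM in sham libraries. All TAC libraries lay above all sham libraries, with TAC replicate 3 the highest. Gbe1 was 1.98 times the sham level in the fit (log2 fold change 0.99 ± 0.21 (SE), edgeR adjusted p = 0.0346), with 17.5 ± 3.16 CPM in TAC and 8.82 ± 1.65 CPM in sham (SD, n = 3 each). Its call held in 2 of the 6 fits that left out a library, those without TAC replicate 3 and without sham replicate 1, and in the other 4 the adjusted p ran to 0.137.

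Ugp2 and Gbe1 also had the lowest GC content of the 28 genes, 39.1% and 42.3%, against a median of 53.2%. With these GC and length trends taken out, Ugp2 had a log2 value of 1.13 and was still called (edgeR adjusted p = 0.0132), whereas Gbe1 had 0.52 and was not (edgeR adjusted p = 0.0759).

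The window of 250 bases before the gene start is shown for Ugp2, Gbe1 and Pfkm, from the strand of the gene and 5′ to 3′ (RefSeq, GRCm38.p6). The set of promoter windows used here held no entry for Slc2a4, the other called gene. Capitals mark matches to ACGTG or CACGTG, the core and the palindromic E-box form bound by basic helix-loop-helix factors such as HIF-1 and MLX partners, and to GGGCGG, a GC box, or its reverse complement CCGCCC.
Ugp2: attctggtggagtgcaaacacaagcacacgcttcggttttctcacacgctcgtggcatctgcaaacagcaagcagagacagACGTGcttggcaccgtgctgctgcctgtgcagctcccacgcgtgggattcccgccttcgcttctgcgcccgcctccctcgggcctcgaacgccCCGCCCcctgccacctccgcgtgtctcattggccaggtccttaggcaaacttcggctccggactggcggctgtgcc
Gbe1: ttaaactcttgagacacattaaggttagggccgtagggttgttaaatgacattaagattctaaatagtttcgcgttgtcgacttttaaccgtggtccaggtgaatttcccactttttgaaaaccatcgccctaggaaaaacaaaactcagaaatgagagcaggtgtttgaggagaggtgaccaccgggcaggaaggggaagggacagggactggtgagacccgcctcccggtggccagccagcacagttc
Pfkm: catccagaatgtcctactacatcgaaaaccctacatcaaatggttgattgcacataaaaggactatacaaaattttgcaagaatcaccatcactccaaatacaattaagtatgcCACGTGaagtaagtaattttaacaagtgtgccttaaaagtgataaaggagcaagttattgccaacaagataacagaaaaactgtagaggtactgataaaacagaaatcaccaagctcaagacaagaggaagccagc
These windows lie at chr11:21371268-21371517 (minus strand, 66 bases from the end of the deposited record) for Ugp2, chr16:70313699-70313948 (plus strand) for Gbe1 and chr15:98092339-98092588 (plus strand) for Pfkm; RefSeq gives 2 starts for Ugp2 and 4 for Pfkm, and the one nearest the deposited record is shown. Ugp2 held 1 core and 1 GC box, Pfkm 1 palindrome, and Gbe1 none of these letters in this window. The core, the palindrome, the GC box and AGGTCA (the half-site of nuclear receptors such as ERR alpha) were searched on both strands, and the palindromic form holds the core on each strand. Of the 27 tested genes with a window, 11 held the core, 3 the palindrome, 14 the GC box and 3 the half-site, where 16.6%, 6.02%, 32.7% and 14.02% of all 32851 windows did. A match is a description of the letters and not of binding.

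The other genes of glycogen synthesis stood on both sides of zero. Gys1, muscle glycogen synthase, which lengthens the chains, had 27.98, 25.95 and 36.9 FPKM in TAC libraries, against 44.0, 55.8 and 48.6 FPKM in sham libraries. The TAC libraries all lay below the sham libraries, and the log2 fold change of -0.57 ± 0.14 narrowly missed the threshold (edgeR adjusted p = 0.0510). Gyg, glycogenin, the protein primer of a glycogen particle, had 39.6, 39.6 and 61.6 FPKM in TAC libraries, against 37.5, 33.1 and 35.1 FPKM in sham libraries. Its groups did not overlap, TAC replicate 3 stood far above the rest, and its log2 fold change was 0.54 ± 0.16 (edgeR adjusted p = 0.0751). Pgm1, phosphoglucomutase, which links glucose 6-phosphate and glucose 1-phosphate, had 95.1, 96.7 and 133 FPKM in TAC libraries, against 153, 168 and 148 FPKM in sham libraries. The groups did not overlap, and its log2 fold change was -0.39 ± 0.14 (edgeR adjusted p = 0.113). Pgm2, a related enzyme that acts mainly on pentose phosphates, had 0.945 to 1.20 FPKM in TAC and 0.630 to 0.952 FPKM in sham libraries. Of the exonic bases of Gys1, 6.5% overlap Ruvbl2 (mean 10.9 FPKM) on the opposite strand, and 13.6% of those of Pgm1 overlap Itgb3bp (mean 0.207 FPKM). Without TAC replicate 3 all 5 tested genes of glycogen synthesis were called by edgeR, Ugp2, Gbe1 and Gyg (log2 0.38) higher and Gys1 (log2 -0.66) and Pgm1 (log2 -0.49) lower, in a fit that called 19.4% of all tested genes against 6.99% with all libraries.

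On the route out of glycogen, 0 of the 3 tested genes passed edgeR's test; 2 had an unadjusted p under 0.05, Pygm and Phka1, and DESeq2 called Pygm lower. Pygm, muscle glycogen phosphorylase, had 462, 408 and 513 FPKM in TAC libraries, against 634, 726 and 772 FPKM in sham libraries. No TAC library reached the lowest sham library, with a log2 fold change of -0.48 ± 0.15 (edgeR adjusted p = 0.0793). Pygb, the brain form, had 151, 134 and 314 FPKM in TAC libraries, against 318, 316 and 254 FPKM in sham libraries. TAC replicate 3 lay at the level of the sham libraries and the other TAC replicates far below them. The log2 fold change of Pygb was -0.45 ± 0.27 with all libraries (edgeR adjusted p = 0.315) and -0.84 without TAC replicate 3, where it was called lower (edgeR adjusted p = 0.0118).

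Phosphorylase kinase is built of regulatory alpha and beta subunits and a catalytic gamma subunit. Phka1, its muscle alpha subunit, had 2.39, 2.72 and 3.40 FPKM in TAC libraries, against 2.31, 2.06 and 2.21 FPKM in sham libraries. The groups were separate by a small margin, and the log2 fold change was 0.51 ± 0.16 (edgeR adjusted p = 0.0808). Phkb, the beta subunit, had 0.819, 0.844 and 1.45 FPKM in TAC libraries, against 0.648, 0.525 and 0.388 FPKM in sham libraries. These groups did not overlap either. Phkb was too low for the main test; tested with genes of all levels it had a log2 fold change of 1.01 ± 0.26 and an edgeR adjusted p of 0.0797, and DESeq2 called it higher (log2 0.99, DESeq2 adjusted p = 0.00667).

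The balance between the forms of an enzyme was compared as the share of 1 gene in the summed FPKM of its family, for 9 families. With 3 against 3 libraries the exact two-sided permutation test cannot give a p under 0.1, and after adjustment over the 9 families the smallest value was 0.15. The share of Slc2a1 among the 2 transporter genes was 4.75%, 5.89% and 7.47% in TAC libraries, against 3.27%, 2.56% and 3.78% in sham libraries. The share of Eno1 among the enolase genes was 4.60%, 4.90% and 5.05% in TAC libraries, against 3.31%, 3.22% and 3.61% in sham libraries. The share of Pgam1 among the mutase genes was 3.29%, 3.43% and 3.99% in TAC libraries, against 3.02%, 2.76% and 2.18% in sham libraries. In these 3 families, each share of the non-muscle or basal form was higher in every TAC library than in every sham library, at the smallest possible p of 0.1 in the exact permutation test. Pfkfb2 among the Pfkfb genes (45.8% ± 7.48 in TAC and 39.0% ± 1.20 in sham, SD, n = 3 each) and Aldoc among the aldolase genes (0.0134% ± 0.00196 in TAC and 0.00684% ± 0.00220 in sham) were likewise separate, as was Pfkm, at lower shares in TAC. The difference in the Pfkfb2 share was 6.85 percentage points with all libraries and 2.54 without TAC replicate 3, whose share was 54.4% beside 41.0% and 42.0% in the other TAC libraries. Hk1 among the hexokinase genes was 63.3% ± 4.29 in TAC and 66.7% ± 3.87 in sham, and Pygb among the phosphorylase genes was 29.1% ± 7.65 in TAC and 29.5% ± 4.34 in sham (SD, n = 3 each). The shares of Hk1 and Pygb overlapped between the groups (exact permutation p = 0.4 and 0.8), with TAC replicate 3 apart from the other TAC replicates in both.

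**Figure D4:**
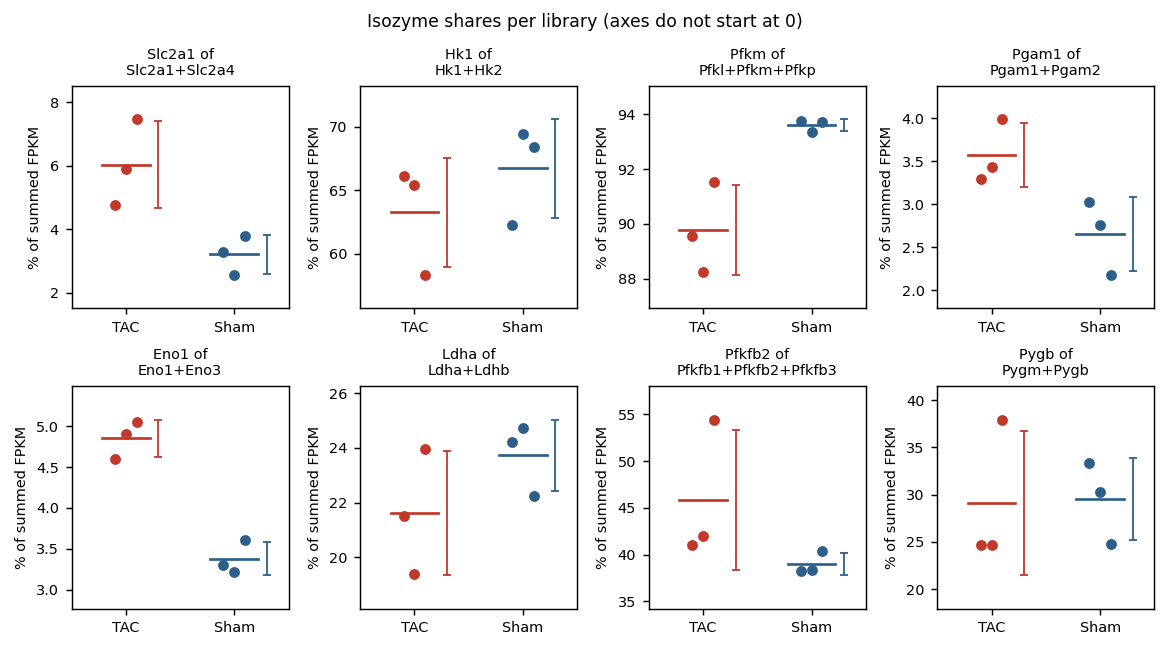
Share of the named gene in the summed FPKM of its family, in percent, one point per library with the mean (line) and SD (bar) of each group, TAC left of sham, on axes that do not start at 0. The groups are separate for Slc2a1, Pfkm, Pgam1, Eno1 and Pfkfb2 and overlap for Hk1, Ldha and Pygb.

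TAC replicate 3 differed from the other TAC replicates in many of these genes. Its log2 CPM minus their mean was 1.17 for Pfkfb2, 0.95 for Pygb and 0.93 for Hk2, and it was -0.93 for Pgam2, -0.86 for Gapdh and -0.67 for both Eno3 and Pgam1. Without this library, 13 of the 28 genes were called by edgeR, 5 higher (Ugp2, Gbe1, Gyg, Pfkp and Pgam1) and 8 lower (Slc2a4, Pfkm, Eno3, Ldha, Pgm1, Gys1, Pygm and Pygb), where 19.4% of all tested genes were called, 9.24% higher and 10.1% lower. Its mitochondrial share, 22.6%, was the lowest of the TAC libraries and its TMM factor the highest. The part of these values in the results was not tested.

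The fold changes also varied with the base composition of the transcripts. Over the 28 genes, GC content ran from 39.1% to 57.7%, and its correlation across genes with the log2 fold change was Pearson -0.80 and Spearman -0.61. Over the 8790 tested genes with a GC content it was Pearson -0.43 and Spearman -0.49, and genes share libraries and are not independent replicates. After removal of these trends, the Spearman value was -0.47 over the 28 genes and -0.0064 over all, and 3 genes were called, Ugp2 higher and Pfkm and Eno3 lower, where 5.23% of all tested genes were, 2.75% higher and 2.48% lower.

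**Figure D5:**
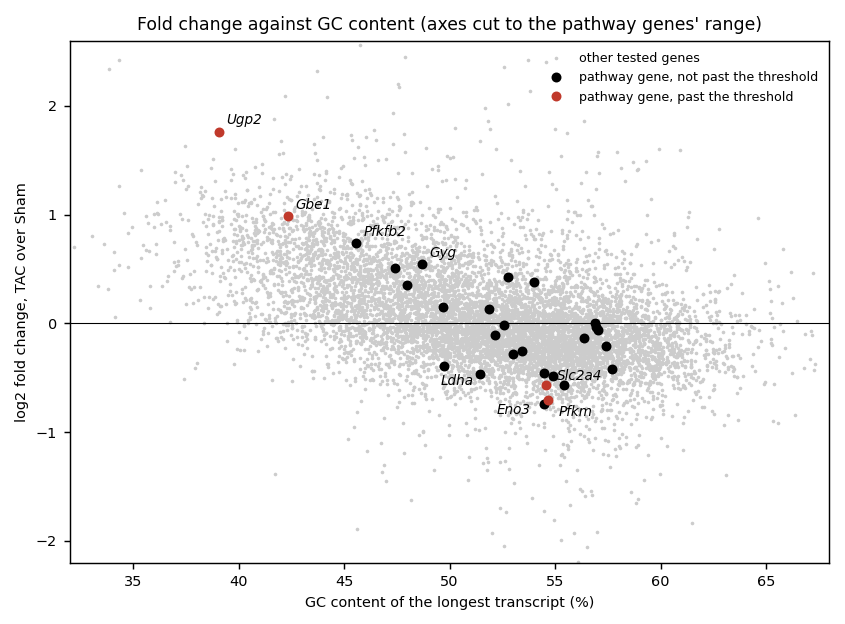
Log2 fold change of TAC over sham (edgeR, y axis) against the GC content of the transcripts in percent (x axis) for the 28 tested genes over the other tested genes in grey, with axes limited to the range around the 28. Ugp2 and Gbe1 lie at the low end of GC content with the highest fold changes, and Slc2a4, Pfkm and Eno3 lie between 54.5% and 54.7% GC with values below 0.

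The other genes of glucose and glycogen handling were read from lists of related enzymes and regulators, of which 59 genes were tested; 2 were higher and 3 lower in TAC by edgeR, a share near the 6.99% called over all tested genes, and their median log2 fold change was 0.030. Among 13 other glycogen enzymes and regulators, 1 was higher and 1 lower. Phkg1, the muscle gamma subunit of phosphorylase kinase, had 1.18, 1.05 and 1.65 FPKM in TAC libraries, against 3.22, 2.68 and 2.77 FPKM in sham libraries. All TAC libraries lay below all sham libraries, with a log2 fold change of -1.02 ± 0.18 (edgeR adjusted p = 0.0251). Stbd1, which tethers glycogen to membranes, had 2.53, 3.34 and 3.13 FPKM in TAC libraries, against 1.94, 2.02 and 1.53 FPKM in sham libraries. All TAC libraries lay above all sham libraries, with a log2 fold change of 0.86 ± 0.20 (edgeR adjusted p = 0.0444). Both were also called with the GC and length trends removed (edgeR adjusted p = 0.0154 for Phkg1 and 0.0393 for Stbd1), and each was called in 1 of the 6 fits that left out a library, the one without TAC replicate 3.

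Of 10 genes of insulin signalling and transporter traffic, edgeR called Akt2 lower and no other passed. At an unadjusted p under 0.05 in edgeR, 2 were higher and 3 lower, and DESeq2 called 0 higher and 3 lower. Akt2, the insulin-activated kinase that drives GLUT4 to the cell surface, had 31.6, 28.8 and 40.3 FPKM in TAC libraries, against 54.0, 67.2 and 57.4 FPKM in sham libraries. All 3 TAC libraries lay below all 3 sham libraries, and the log2 fold change was -0.69 ± 0.14 (edgeR adjusted p = 0.0341). The next list was of transcription factors of glycolytic genes and also held Egln1, Egln3 and Vhl, which are not such factors. Of its 15 tested genes, edgeR called Esrra lower and no other, and DESeq2 called 2 higher and 3 lower. Esrra, the estrogen-related receptor alpha of energy metabolism, had 22.7, 22.6 and 24.0 FPKM in TAC libraries, against 32.5, 42.5 and 37.0 FPKM in sham libraries. Its groups did not overlap, and its log2 fold change was -0.54 ± 0.13 (edgeR adjusted p = 0.0489), with an adjusted p of 0.0544 once the GC and length trends were removed. Akt2 and Esrra were each called in 1 of the 6 fits that left out a library, the one without TAC replicate 3. Of 12 genes of the pentose phosphate, hexosamine and polyol branches 0 passed edgeR's test and 4 had an unadjusted p under 0.05, and DESeq2 called 0. The most abundant of them, Sord and Taldo1, had log2 fold changes of -0.23 ± 0.14 and -0.31 ± 0.16.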

How the data were processed

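Poly(A)-selected RNA of the left ventricle was sequenced in 3 TAC and 3 sham libraries, and samples were grouped by their labels. Per the labels' protocols, RNA was extracted with Trizol and libraries were made with a dUTP-marked second strand. StringTie 1.3.4d, HISAT2 2.0.4, cutadapt 1.9 and the build GRCm38 are named in the submitters' processing notes. Use of strand in counting was not given in the sources used here. Per the file headers, the authors deposited FPKM and whole-number estimated counts for each gene. The origin of these counts was not given in the sources used here. In edgeR and DESeq2 they were fitted as ordinary counts, with no allowance for their being estimates, so counting error understates their uncertainty.

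The 8795 genes whose FPKM averaged at least 1 in the 6 libraries were scaled by TMM and tested with edgeR 4.0.16 (R 4.3.3) by glmQLFit and glmQLFTest, with Benjamini-Hochberg adjustment over all of them. CPM use the TMM-scaled library size. The SE was approximated from the fold change and its F statistic. Isozyme shares were compared by exact permutation. Alternatives were limma 3.58.1 on log2(FPKM + 1), DESeq2 1.42.0, other scalings and filters, a replicate block, removal of GC and length trends by lowess (span 0.3, 3 rounds), and leaving out each library. GC content, transcript overlap and near-identical copies came from GENCODE M21, in which 24547 of the 24602 identifiers were found. The fits were tested on simulated counts, drawn independently for each library from the spread fitted to these data. These counts held no GC or length trend and no library apart from its group. The rates found in them therefore need not hold for the deposited estimates. In them edgeR called 51% of 100 genes changed 2-fold and 100% of 100 genes changed 4-fold. Of its 156 calls, 5 were unchanged genes. A gene that did not pass may therefore still differ.

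The genes and lists were chosen with earlier results of these data known. All 33 genes are described; of each other list, the called genes are named, or the 2 most abundant where none was called. The list of other transporters and isozymes enters the summed counts but its genes are not reported here. Markers of cell types were read as summed CPM.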

Additional observations from a re-analysis of the deposited data

How the results depend on the processing

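The main counts were 2 higher and 2 lower of the 28 genes, 414 and 201 of all genes, and 2 and 3 of the 59 genes of the other lists. Leaving out each library in turn gave 1 to 5 genes higher and 0 to 8 lower (4 to 6 and 6 to 10 at an unadjusted p under 0.05), 9 to 813 and 3 to 892 over all genes, and 0 to 2 and 0 to 8 in the other lists. The highest counts came without TAC replicate 3 and the lowest over all genes without sham replicate 2. With no filter on low values, 34 records of the set were among 23834 tested genes. There edgeR called 1 higher and 1 lower of the set, 163 and 122 over all genes, and 1 and 2 in the other lists. With filterByExpr, 33 records of the set were among 15926 tested genes. That fit called 2 higher and 3 lower of the set, 478 and 296 over all genes, and 1 and 4 in the other lists. DESeq2 gave adjusted p-values for 33 records of the set among 13653 genes. It called 3 higher and 8 lower of the set, 1162 and 1033 over all genes, and 4 and 9 in the other lists. Phkb, 1 of those 3, is not among the 28 genes. limma on log2(FPKM + 1) called 1 higher and 5 lower, 174 and 338 over all genes, and 1 and 4 in the other lists. On log2(FPKM + 0.1) it called 1 and 4, 170 and 336 over all genes, and 1 and 3 in the other lists. Removing the GC and length trends gave 1 higher and 2 lower, and 242 and 218 over all genes. Removing them without TAC replicate 3, chosen after seeing the data, gave 3 higher and 6 lower, and 562 and 586 over all genes. Summing copies, also chosen after seeing the data, left 2 higher and 2 lower, as did both other scalings. Over all genes, summing gave 427 and 205, relative log expression scaling 440 and 201, and scaling without mitochondrial genes 412 and 200.

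Deviations of same-numbered TAC and sham libraries from their group means correlated at -0.10, 0.14 and -0.06, and those of differently numbered libraries at -0.23 to 0.25. With 3 libraries in each group, these values cannot settle whether the replicate numbers pair the samples. With the replicate number as a block, edgeR called 1 higher (Ugp2) and 0 lower, with 6 lower at an unadjusted p under 0.05, and 141 and 42 over all genes; with the trends removed as well, 1 and 0, again 6 lower unadjusted, and 117 and 60. In the other lists the blocked fit called 3 higher and 1 lower, and with the trends removed as well 2 and 1.

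Among the 28 genes, directions turned under these alternatives only in genes that were not called. With the trends removed, with the trends removed and the block added, and with the trends removed without TAC replicate 3, Gpi1 had log2 values of 0.0051, 0.012 and 0.075, Pfkl 0.17, 0.15 and 0.31, Aldoa 0.10, 0.11 and 0.17, and Gapdh 0.11, 0.24 and 0.38. Hk1 turned to 0.073 with the trends removed and to 0.066 with the block as well. Eno1 turned to 0.081 and Hk2 to -0.028 with the trends removed without TAC replicate 3. Hk2 was -0.072 and -0.080 in limma. Gapdh was 0.11 with the block and 0.031 summed with its copies. Pgam2 was -0.089 unfiltered, -0.081 with filterByExpr, -0.11 in DESeq2, -0.20 in limma and -0.049 with the block. Leaving out libraries ran Hk2 over -0.24 to 0.33, Pfkl over -0.16 to 0.065, Aldoa over -0.15 to 0.15, Gapdh over -0.47 to 0.69, Pgam2 over -0.19 to 0.26, and the difference in the Pygb share over -4.79 to 1.84 percentage points. The cause was not tested. Depth limits the lowest genes: Aldoc had as few as 23 counts in a library.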
